A study of Homo sapiens with 24 samples.

Results

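The splicing factor genes described here are the rows of the expression table whose symbol starts with SRSF, HNRNP, SF3A, SF3B, SNRP, U2AF or PRPF. The rule found 72 of the 15862 listed genes. They were 69 genes, 2 pseudogenes (HNRNPA1P10 and HNRNPKP3) and 1 antisense RNA (HNRNPU-AS1). By prefix there were 12 SRSF, 24 HNRNP, 3 SF3A, 6 SF3B, 11 SNRP, 3 U2AF and 13 PRPF members. The rule used symbols and no expression values, but it was chosen with earlier results of these data known.

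Pre-mRNA splicing is carried out by the spliceosome, which assembles on each intron from small nuclear ribonucleoproteins and many helper proteins. The SNRP genes encode proteins of these particles, among them the Sm proteins that form a ring around the small nuclear RNAs. SF3A and SF3B are the multi-subunit complexes of the U2 particle that hold the branch site, and the U2AF heterodimer reads the 3' splice site. The PRPF proteins belong largely to the U4/U6.U5 tri-snRNP and to the catalytic core. SR proteins (SRSF) and hnRNP proteins (HNRNP) bind exons and introns and set which splice sites are used, often with opposite effects. Genes for SR proteins and core factors are mutated in some leukaemias.

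RNA was sequenced from LOUCY and JURKAT, established human cell lines that both derive from acute lymphoblastic leukaemia of T cells. LOUCY carries features of early T-cell precursor disease. Untreated LOUCY and untreated JURKAT had 6 libraries each. For 24 h, LOUCY was also given the vehicle DMSO at 0.05%, JQ1 at 250 nM or I-BET151 at 500 nM, with 4 libraries each. JQ1 and I-BET151 are inhibitors of the BET bromodomain proteins, which bind acetylated histones. The libraries came from 2 experiments with equal numbers of each group, and no JURKAT library was treated. Each group is 1 cell line, and the labels do not say whether the numbered replicates were separate cultures, so the p-values measure the spread between these libraries, which may be technical.

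Recovered read totals over the listed genes were 4381134 to 7074198 per library. The T-cell receptor complex gene CD3D was at a mean of 1531 RPKM in untreated LOUCY and 915 RPKM in JURKAT, and CD7 at 90.4 and 9.78 RPKM. Other T-cell genes were near 0 in 1 line: CD5 was at 0.305 RPKM in LOUCY and 6.60 RPKM in JURKAT, and CD28 at 2.98 and 0.704 RPKM. HHEX, a transcription factor of early progenitors, was at 117 RPKM in LOUCY and 0.275 RPKM in JURKAT, and TAL1 was at 0.186 RPKM and 27.0 RPKM. The B-cell gene MS4A1 and the stromal gene COL1A1 each had means below 1 RPKM in all 5 groups, while the myeloid gene MPO was at 4.94 RPKM in untreated LOUCY, 2.70 RPKM with DMSO and 0.176 RPKM in JURKAT. Of the 22 marker genes listed for this check, 19 were in the rows.

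Levels are given in RPKM, which divides reads by the length of the gene and the depth of the library, so they can be compared between genes to the extent that the authors' gene lengths are right. Averaged over the 24 libraries, the median member stood at 65.5 RPKM, against 4.56 RPKM for the median listed gene. In all libraries, 71 of the 72 members were above 0. HNRNPH1, an hnRNP protein that binds runs of G, had the highest mean at 782 RPKM and rank 54 among all listed genes. SNRPD2, a subunit of the Sm ring, followed at 730 RPKM and rank 66. At the other end PRPF40B, a U1-associated factor, averaged 0.320 RPKM, and SRSF12, HNRNPA1P10 and HNRNPKP3 were also below 1 RPKM on average. These 4 members did not reach 1 RPKM in at least 4 libraries of either fit and were not tested, which left 68.

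Members that work together in 1 complex differed widely in level. In untreated LOUCY the Sm ring proteins ranged from 77.3 RPKM ± 5.1 (SD, n = 6) for SNRPD3 to 747 RPKM ± 86 (SD, n = 6) for SNRPD2, with SNRPB, the subunit with a C-terminal tail, at 591 RPKM. In the SF3B complex SF3B6, the protein that touches the branch point adenosine, stood at 337 RPKM, SF3B1, the scaffold subunit, at 130 RPKM and SF3B3 at 30.1 RPKM. SF3A3 was at 89.5 RPKM, SF3A1 at 19.6 RPKM and SF3A2 at 4.03 RPKM. PRPF8, the large protein at the catalytic centre, was at 23.0 RPKM, below PRPF38A at 89.3 RPKM, an activator of the assembled spliceosome.

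Some low values are uncertain because the sequence is not unique. U2AF1, the small subunit of the 3' splice site reader, was at 1.10 to 3.13 RPKM over the 24 libraries, from 13 to 38 reads. In the GENCODE 29 annotation of GRCh38, 98.9% of the 50-base windows of its longest transcript also occur in U2AF1L5. HNRNPA1L2 shared 58.5% of its windows with other annotated genes, chiefly HNRNPA1, and HNRNPA1P10 shared 88.4%. HNRNPUL2 shared 45.2% with the read-through gene HNRNPUL2-BSCL2, and SRSF1 58.5% with an overlapping entry. The other members that shared over 20% were HNRNPA1 with 28.8% and PRPF18 with 42.5%. The sources used here do not state how the authors counted such reads, and library preparation did not mark strand, so HNRNPU-AS1 cannot be told apart from HNRNPU where they overlap.

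A set of 3 libraries stood apart, each from experiment 2: I-BET151 replicate 1, DMSO replicate 1 and untreated LOUCY replicate 2. For each gene their level was set against the mean of their own group. Across genes the slopes were -0.31, -0.28 and -0.23 on the log2 scale per 10 percentage points of GC. The members had a median transcript GC content of 43.0%, against 47.9% for all listed genes, so this touched them directly. In I-BET151 replicate 1 of experiment 2, HNRNPH1 was at 2569 RPKM, against 517, 858 and 558 RPKM in the other I-BET151 libraries. SNRPE, an Sm ring protein of 47.05% GC, near the listed median, was at 1096 RPKM there, against 137, 282 and 133 RPKM. SRSF3, the smallest classical SR protein, was at 891 RPKM, against 245, 312 and 239 RPKM. Over the 67 members with a GC value and a mean of at least 1 RPKM, the deviation of this library from the other 3 had a Pearson r of -0.56 with GC content, a description across genes of the same libraries. Over all 10671 such genes the r was -0.635. The 18 members below 40% GC had a median deviation of 0.81 on the log2 scale, and the 19 at 50% GC or more a median of -0.44. The summed RPKM of all members was 12741 in this library, and 7655 in the lowest of the same group. What set these libraries apart was not tested, and the results that follow say where a named member's call changed when they were left out.

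**Figure D1:**
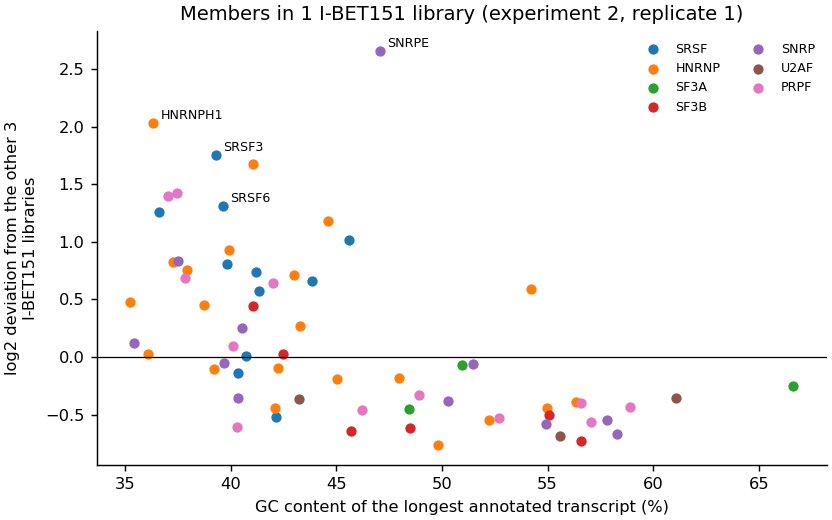
Each point is 1 member of at least 1 RPKM on average, coloured by family; the x axis is the GC content of its longest annotated transcript in percent and the y axis its log2(RPKM + 1) in I-BET151 replicate 1 of experiment 2 minus the mean of the other 3 I-BET151 libraries. The points fall from left to right, with SNRPE, HNRNPH1 and SRSF3 highest; SRSF6 is labelled too.

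The first comparison set untreated LOUCY against untreated JURKAT. SR protein genes were higher in LOUCY as a group: 9 of the 11 tested rose past the threshold and 0 fell, with a median log2 difference of 0.33. Of the 11 SNRP genes 0 were higher and 5 lower, with a median of -0.16. This count of 5 fell to 3 without untreated LOUCY replicate 3 of experiment 1 or JURKAT replicate 3 of experiment 2, and with quantile normalization 3 were higher and 4 lower. HNRNP genes were mixed, 9 higher and 4 lower of 21 genes with a median of 0.13. Over all members 20 of 68 were higher and 15 lower, beside 35.5% of all tested genes higher and 37.5% lower. The SRSF share higher was 81.8%, and the SNRP share lower, 45.5%, was nearer to the background. The members' shares, 29.4% and 22.1%, were below those of the background, and their median log2 difference was 0.03 against -0.02 for all genes. In RNA of whole cultures, fewer cells with a transcript and less of it per cell cannot be told apart. The differences were small: 2 of the 68 were called at a log2 difference of 1 or more in either direction, beside 3100 of all 11978 tested genes. The members' range was -0.86 to 1.10. Calls rest on limma with an experiment term, on log2(RPKM + 1), at a Benjamini-Hochberg adjusted p under 0.05 over all 11978 tested genes.

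**Figure D2:**
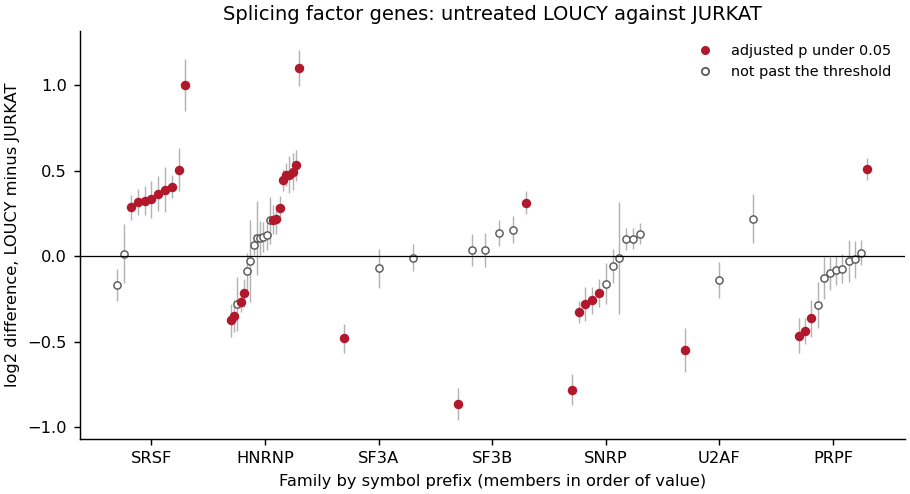
Each point is 1 tested member, grouped by symbol prefix and ordered by value; the y axis is the log2 difference of untreated LOUCY minus untreated JURKAT from limma, with its standard error as a bar, over 6 libraries each. Filled points passed an adjusted p of 0.05. Most SRSF points lie above 0, and the filled SNRP points lie below it.

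Among the SR proteins SRSF6, a regulator of alternative exons, showed the largest rise. Its level ran from 116 RPKM through a median of 131 to 232 RPKM in LOUCY and from 61.1 through 73.3 to 89.7 RPKM in JURKAT. The 2 sets of libraries did not overlap. The log2 difference was 1.00 ± 0.15 (SE), 0.67 in experiment 1 and 1.33 in experiment 2, and limma's adjusted p was 2.55e-05. The highest LOUCY value came from the untreated library of steep GC slope. SRSF9 (log2 difference 0.51), SRSF5 (0.41), SRSF11 (0.39), SRSF10 (0.37), SRSF2 (0.33), SRSF8 (0.32), SRSF7 (0.32) and SRSF4 (0.29) also rose. The calls of SRSF4 and SRSF8 were lost in experiment 2 alone and that of SRSF7 in experiment 1 alone. The SRSF2 call was lost when libraries were scaled to their medians or in experiment 2 alone, and that of SRSF11 with median scaling, without the experiment term or in experiment 1 alone. SRSF1, the founding SR protein, had a log2 difference of -0.17 with an adjusted p of 0.12 in limma, and passed as lower with median scaling, with the GC trend removed, in experiment 1 alone and without untreated LOUCY replicate 2 or JURKAT replicate 1 of experiment 2. SRSF3 differed by 0.02 on the log2 scale with a standard error of 0.17.

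HNRNPLL had the largest log2 difference of all members. This protein regulates exon skipping of PTPRC (CD45) in activated lymphocytes. Its level was 18.7 RPKM at the lowest, 22.1 at the median and 29.9 RPKM at the highest in LOUCY, and 7.50, 10.0 and 14.5 RPKM in JURKAT. The groups did not overlap, and the log2 difference was 1.10 ± 0.11 (SE), 1.22 and 0.98 in the 2 experiments. PTPRC itself stood at 118 RPKM in LOUCY and 39.7 RPKM in JURKAT. The paralogue HNRNPL, a CA-repeat binder that acts on the same exons, also rose, with 63.2 RPKM against 44.0 RPKM and a log2 difference of 0.48; its libraries overlapped, and the call was lost in experiment 2 alone.

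Other HNRNP genes higher in LOUCY were HNRNPUL1 (0.53), HNRNPUL2 (0.50), HNRNPF (0.48), HNRNPD (0.45), HNRNPH3 (0.28), HNRNPA1L2 (0.22) and HNRNPK (0.21), as log2 differences. HNRNPA1, an exonic silencer protein and the counterpart of SRSF1 in splice site choice, showed the largest fall of the family. It ranged from 138 to 186 RPKM with a median of 159 in LOUCY, and from 172 to 261 RPKM with a median of 198 in JURKAT. The ranges overlapped, and the log2 difference was -0.37 ± 0.10 (SE) with an adjusted p of 0.00277 in limma. HNRNPAB (-0.35), HNRNPC (-0.26) and HNRNPA2B1 (-0.21) fell too. HNRNPA2B1 lost its call in 7 of 24 alternatives, and HNRNPAB and HNRNPC lost theirs in experiment 2 alone. HNRNPK and HNRNPA1L2 were the least stable of the rises, losing their call in 14 and 12 of the alternatives.

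In the U2 particle the smallest SF3B subunits moved in opposite directions. SF3B5 was the lowest in LOUCY of all members relative to JURKAT, with 82.8 to 136 RPKM and a median of 111 against 167 to 256 RPKM and a median of 194. No LOUCY library reached the lowest JURKAT library, and the log2 difference was -0.86 ± 0.09 (SE). SF3B6 was higher, at 299 to 365 RPKM against 251 to 295 RPKM, again without overlap, with a log2 difference of 0.31 ± 0.07 (SE). SF3B1, SF3B2, SF3B3 and SF3B4 had log2 differences of 0.14, 0.16, 0.04 and 0.04 and did not pass. SF3A3, the subunit that contacts the U2 RNA, fell by 0.48 on the log2 scale, with a median of 93.0 RPKM in LOUCY and 124 RPKM in JURKAT and overlapping ranges. SF3A1 and SF3A2 differed by -0.01 and -0.07 and did not pass.

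SNRPF, a subunit of the Sm ring, had the largest fall of its family. Its LOUCY libraries spanned 158 to 240 RPKM with a median of 223, and its JURKAT libraries 333 to 403 RPKM with a median of 365. The groups were fully separate, and the log2 difference was -0.78 ± 0.09 (SE), -0.73 in experiment 1 and -0.83 in experiment 2. SNRPC, a U1 protein, fell by 0.32 on the log2 scale, and the Sm proteins SNRPG, SNRPB and SNRPD2 fell by 0.28, 0.26 and 0.21. SNRPD2 lost its call in 10 of 24 alternatives and SNRPG in 4. SNRPD1, SNRPD3 and SNRPA1 had positive log2 differences of 0.10, 0.13 and 0.10 that did not pass. With quantile normalization 3 SNRP genes passed as higher, SNRPD1 among them, so the family's direction was not uniform under that scaling. SNRPE differed by -0.01 with a standard error of 0.33, since its LOUCY libraries ran from 169 to 730 RPKM.

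For the 3' splice site reader, U2AF1L4, a paralogue of the small subunit, was lower in LOUCY. Its libraries ran from 8.21 to 12.8 RPKM against 11.6 to 18.1 RPKM, with overlap and a log2 difference of -0.55 ± 0.13 (SE). U2AF1 and U2AF2 had log2 differences of 0.22 and -0.14 and did not pass. In the PRPF family 1 gene, PRPF38A, rose and 3 fell, PRPF3 and PRPF6 among them, and 8 of the 12 tested did not pass. PRPF38A ran from 85.7 to 96.2 RPKM in LOUCY and from 56.6 to 65.5 RPKM in JURKAT, which do not overlap, with a log2 difference of 0.51 ± 0.06 (SE). PRPF3, a U4/U6 protein, ran from 20.1 to 31.1 RPKM against 29.3 to 43.5 RPKM, and its log2 difference was -0.46 ± 0.10 (SE). PRPF6, which bridges the tri-snRNP, fell by 0.36 on the log2 scale. PRPF8, PRPF19, PRPF31 and PRPF4B differed by -0.10, -0.12, -0.08 and -0.03 and did not pass.

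Splicing genes outside the prefixes were also called in both directions in this comparison. Of 60 other core spliceosome genes 16 (26.7%) were higher and 18 (30.0%) lower in LOUCY, below the shares of all tested genes given above, with a median of -0.08. SNRNP25, a protein of the minor spliceosome, was at 25.1 RPKM against 128 RPKM in JURKAT, and the helicase gene AQR at 32.2 RPKM against 13.7 RPKM. Of 42 other splicing regulators 19 (45.2%) were higher and 9 (21.4%) lower, beside 35.5% and 37.5% of all tested genes. PCBP1, a poly(C)-binding protein, was at 148 RPKM against 57.0 RPKM. Among 8 SR protein kinases and transporters 3 (37.5%) were higher and 3 (37.5%) lower, near the shares of all tested genes. CLK1 was at 38.6 RPKM against 22.6 and the SR protein importer TNPO3 at 22.3 RPKM against 34.8. Of 16 exon junction and nonsense-mediated decay genes 6 (37.5%) were higher and 5 (31.25%) lower, also near those shares. EIF4A3 was at 205 RPKM against 93.1.

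The second comparison set DMSO against untreated LOUCY. The labels give no time for the untreated libraries, so the vehicle and any difference in culture time or handling cannot be told apart. In limma over 11411 genes 1 member changed, SRSF5, which was lower with DMSO, beside 0.0263% of all tested genes higher and 0.149% lower. At an unadjusted p under 0.05 there were 4 members, the others being SRSF9, HNRNPA1L2 and PRPF3, beside 1100 of all 11411 tested genes. SRSF5, an SR protein that binds exonic enhancers, was at 139, 147, 144 and 128 RPKM in the DMSO libraries, and ran from 157 to 211 RPKM with a median of 188 in the untreated ones. No DMSO library reached the lowest untreated library. The log2 difference was -0.40 ± 0.08 (SE), -0.51 in experiment 1 and -0.28 in experiment 2, with an adjusted p of 0.0339. That call was lost in 20 of 31 alternatives, among them median scaling, the 2 groups alone and experiment 2 alone, while the direction stayed negative in all of them. It was also lost when any 1 of 13 libraries was left out.

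Next, each inhibitor was set against DMSO. The 2 comparisons share the 4 DMSO libraries, so they are not independent of each other. With JQ1 2 members were higher and 10 lower of 68, beside 10.1% of all tested genes higher and 15.9% lower. With I-BET151 2 were higher and 7 lower, beside 10.3% higher and 15.9% lower of all genes. The members' shares lower were 14.7% and 10.3%, near or below the background, and the shares higher were 2.94% in both. Median log2 differences over the members were -0.06 with JQ1 and -0.04 with I-BET151, against -0.01 and 0.00 for all genes. No member had a log2 difference of 1 or more in either comparison. Of 11411 tested genes, 474 were called at that size with JQ1 and 438 with I-BET151. The SNRP family held 4 of the lower calls in each comparison, out of 11 tested, with 0 higher and medians of -0.26 and -0.23.

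**Figure D3:**
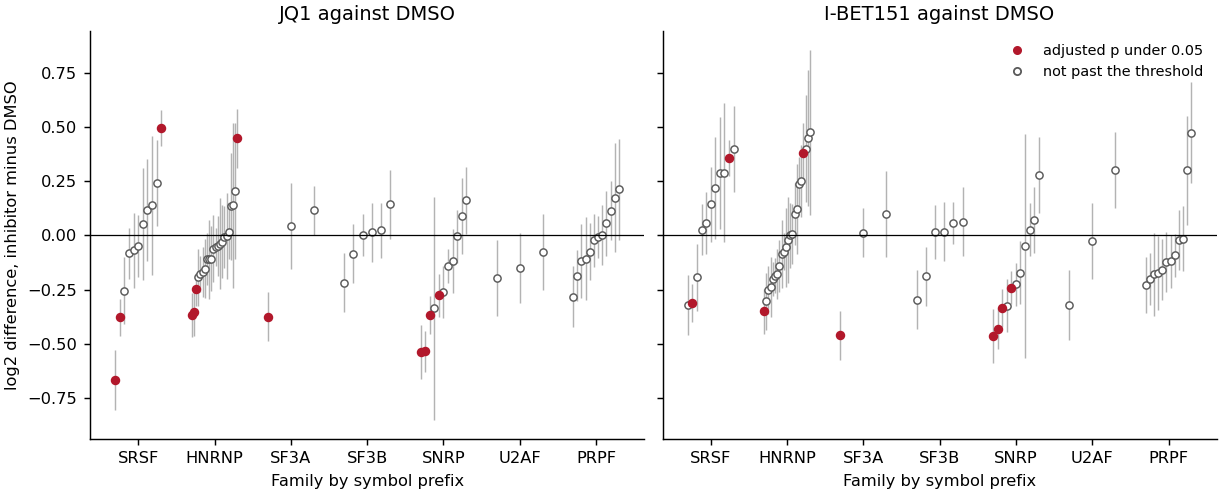
Each point is 1 tested member, grouped by symbol prefix and ordered by value; the y axis is the log2 difference from limma of JQ1 minus DMSO (left) and I-BET151 minus DMSO (right), with its standard error as a bar, over 4 libraries each. Filled points passed an adjusted p of 0.05. The filled SNRP points lie below 0 in both panels, and the highest filled SRSF point in both is SRSF5.

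SNRPF was at 229, 201, 274 and 204 RPKM in the DMSO libraries, at 147, 162, 155 and 156 RPKM with JQ1 and at 159, 169, 174 and 150.5 RPKM with I-BET151. All DMSO libraries lay above all inhibitor libraries. The log2 difference was -0.54 ± 0.13 (SE) with JQ1 and -0.47 ± 0.13 (SE) with I-BET151, with limma's adjusted p at 0.00356 and 0.00996. SNRPA1, a U2 protein, was at 84.3, 90.4, 96.2 and 80.1 RPKM in DMSO, at 60.2, 62.2, 61.3 and 56.7 RPKM with JQ1 and at 73.1, 67.0, 53.5 and 66.7 RPKM with I-BET151. Here too no inhibitor library reached the lowest DMSO library, and the log2 differences were -0.54 and -0.43. SNRPC fell from 305, 312, 311 and 315 RPKM to 241, 252, 246 and 225 RPKM with JQ1 and to 271, 257, 202 and 262 RPKM with I-BET151, again with no overlap, and the log2 differences were -0.37 and -0.33. The I-BET151 calls of SNRPF, SNRPA1 and SNRPC were lost with the 2 groups alone and in experiment 2 alone, that of SNRPC also with quantile normalization and in experiment 1 alone. Their JQ1 calls were lost in experiment 2 alone.

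SNRPD1 passed as lower with JQ1 at a log2 difference of -0.28 and an adjusted p of 0.0493 in limma, and lost this call in 23 of 31 alternatives, one of them without the 3 libraries of steep GC slope. With I-BET151 its log2 difference of -0.23 did not pass, but did without replicate 1 of experiment 2 of that group and with the GC trend removed. SNRPD3 passed as lower with I-BET151 at -0.24 and lost the call in 11, one of them without DMSO replicate 1 of experiment 2. SNRPB had log2 differences of -0.26 and -0.32 with adjusted p of 0.12 and 0.0555 in limma; it passed in both comparisons when the 3 libraries of steep GC slope were left out. SNRPE had -0.34 with JQ1 and -0.05 with I-BET151, each with a standard error of 0.52, and gives no information at this spread.

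SRSF5 was the SR protein gene that rose. Against 139, 147, 144 and 128 RPKM in DMSO it was at 221, 195, 191 and 182 RPKM with JQ1 and at 196, 194, 166 and 162 RPKM with I-BET151. Neither inhibitor group overlapped DMSO. The log2 differences were 0.50 ± 0.08 (SE) and 0.36 ± 0.08 (SE), with limma's adjusted p at 0.000224 and 0.00371; the I-BET151 call was lost with the GC trend removed, with the 2 groups alone and in experiment 2 alone. The levels with both inhibitors lay within or near the untreated range of 157 to 211 RPKM, so SRSF5 differed from DMSO, the group in which it was lowest among the LOUCY groups. Inhibitor-treated and untreated LOUCY were not compared by a test.

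**Figure D4:**
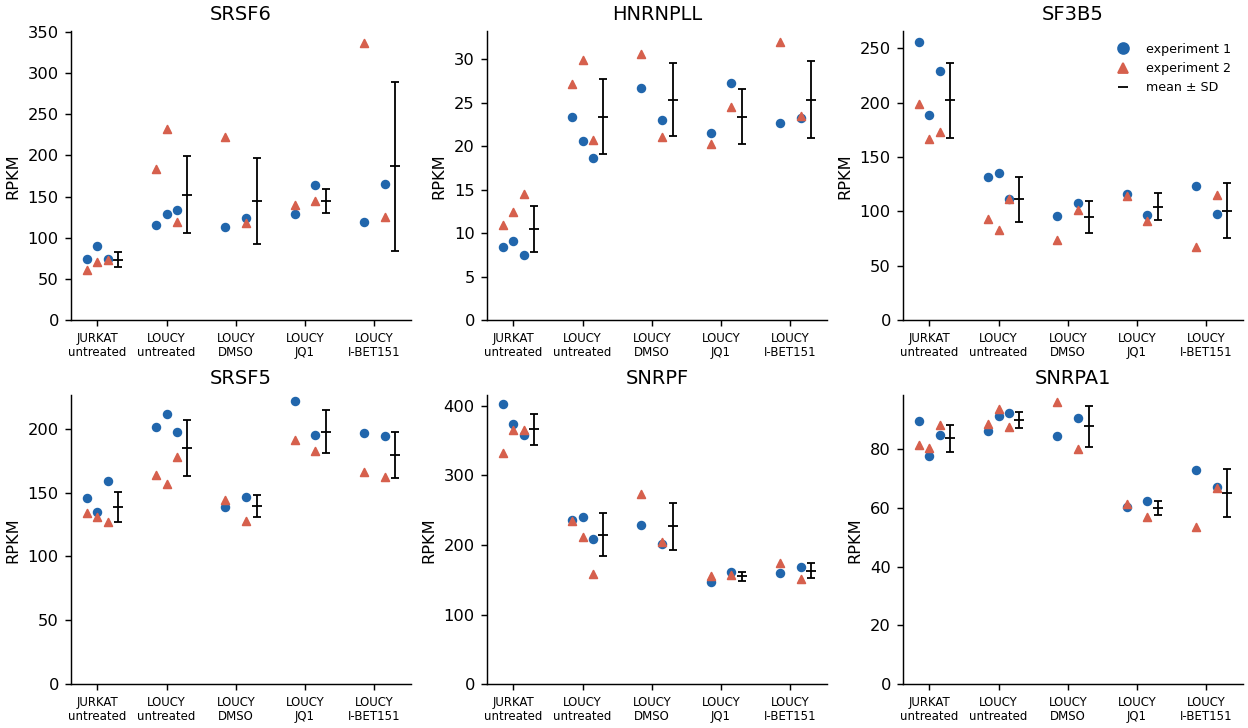
RPKM of 6 members in every library of the 5 groups (linear axes from 0), with circles for experiment 1, triangles for experiment 2 and a bar for the mean ± SD of the group. SRSF6, HNRNPLL and SF3B5 separate JURKAT from untreated LOUCY, SRSF5 is lower in DMSO than in the other LOUCY groups, and the SNRPF and SNRPA1 points of both inhibitors lie under those of DMSO.

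Other SR protein genes fell. SRSF8, an intronless copy related to SRSF2, was at 12.7, 13.3, 14.3 and 13.8 RPKM in DMSO and at 8.23, 7.20, 8.58 and 8.52 RPKM with JQ1, a log2 difference of -0.67 ± 0.14 (SE) and the largest fall of all members. With I-BET151 it was at 9.80, 9.63, 15.4 and 8.62 RPKM, where the library of steep GC slope was the highest, and the log2 difference of -0.32 did not pass; without that library it did. SRSF4 was at 71.4, 74.1, 87.2 and 73.4 RPKM in DMSO, at 59.5, 56.4, 57.2 and 60.8 RPKM with JQ1 and at 62.8, 62.5, 61.5 and 58.4 RPKM with I-BET151. It did not overlap DMSO in either, and fell by 0.38 and 0.31 on the log2 scale. The JQ1 calls of SRSF4 and SRSF8 were lost in experiment 2 alone. The I-BET151 call of SRSF4 was lost in each experiment alone, with averaged replicates and with the 2 groups alone. SRSF1, SRSF2, SRSF3, SRSF6 and SRSF7 did not pass in either comparison. SRSF1 did pass as lower with both inhibitors when the GC trend was removed, and with I-BET151 without replicate 1 of experiment 2 of that group.

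Among the HNRNP genes HNRNPH3, a relative of HNRNPH1, fell with both inhibitors. It was at 174, 162, 162 and 150.5 RPKM in DMSO, at 135, 128, 117 and 122 RPKM with JQ1 and at 134, 132, 146 and 99.8 RPKM with I-BET151. All treated libraries lay below all DMSO libraries, and the log2 differences were -0.37 and -0.35. The JQ1 call of HNRNPH3 was lost in experiment 2 alone. Its I-BET151 call was lost in experiment 2 alone, with the 2 groups alone and without I-BET151 replicate 2 of experiment 2. HNRNPUL2 rose in both, by 0.45 and 0.38, at means of 4.27 and 4.09 RPKM against 2.87 RPKM; its I-BET151 call was lost in 21 of 30 alternatives, one of them without untreated LOUCY replicate 2 of experiment 2. With JQ1 HNRNPA1L2 and HNRNPC also fell, by 0.35 and 0.25 on the log2 scale. The HNRNPC call was lost in 11 of 31 alternatives, among them median scaling, the GC trend removed and DMSO replicate 1 of experiment 2 left out, and that of HNRNPA1L2 in 6. HNRNPA1, HNRNPA2B1, HNRNPK, HNRNPL, HNRNPLL, HNRNPU and HNRNPDL did not pass with either inhibitor.

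SF3A3 was the member of the SF3 complexes that changed. It was at 93.3, 96.6, 91.5 and 101 RPKM in DMSO, at 79.1, 75.8, 72.6 and 66.6 RPKM with JQ1 and at 80.4, 75.4, 54.5 and 69.0 RPKM with I-BET151, with no overlap. The log2 differences were -0.38 ± 0.11 (SE) and -0.46 ± 0.11 (SE). The I-BET151 call was lost in experiment 2 alone and with the 2 groups alone. The JQ1 call was lost in 7 of 31 alternatives, among them quantile normalization and 3 single libraries left out (JQ1 replicates 1 and 2 of experiment 1 and DMSO replicate 2 of experiment 2). No SF3B, U2AF or PRPF gene passed with either inhibitor. At an unadjusted p under 0.05 limma gave 1 such gene, SF3B3 with I-BET151, at -0.30. Of all 11411 tested genes, 4160 had such a p with JQ1 and 4260 with I-BET151. PRPF4B, a kinase of the tri-snRNP, passed as higher with JQ1 without the 3 libraries of steep GC slope, and U2AF1L4 as higher with I-BET151 without replicate 1 of experiment 2 of that group and with the GC trend removed.

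Of 60 core genes outside the prefixes 9 (15.0%) were lower and 0 higher with JQ1, and 10 (16.7%) were lower and 1 higher with I-BET151. The shares lower are near the 15.9% of all tested genes. The lowest in both was PPIL1, a cyclophilin of the activated spliceosome, at 57.3 RPKM in DMSO, 33.1 RPKM with JQ1 and 31.5 RPKM with I-BET151. CTNNBL1 was at 101, 71.2 and 67.3 RPKM. Of 39 tested splicing regulators 5 (12.8%) were higher and 2 (5.13%) lower with JQ1. With I-BET151 4 (10.3%) were higher and 0 lower. The shares higher are near the 10.1% and 10.3% of all tested genes. MBNL2, which governs developmental exon choice, was at 6.54 RPKM in DMSO, 10.1 RPKM with JQ1 and 13.1 RPKM with I-BET151. The SR protein kinase gene CLK2 was at 8.13 RPKM in DMSO, and rose to 10.6 RPKM and 12.1 RPKM. In the exon junction list EIF4A3 was at 194 RPKM in DMSO and 286 and 269 RPKM with the inhibitors, and MAGOHB, a copy of the junction protein MAGOH, at 25.3, 13.7 and 17.8 RPKM; each passed in both comparisons.

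The fifth comparison set JQ1 against I-BET151, which were used at different doses. No member passed in limma, beside 0% of all tested genes higher and 0% lower. At an unadjusted p under 0.05 limma gave 2 members, beside 531 of all 11411 tested genes. Mean levels with JQ1 and I-BET151 were 155 RPKM and 163 RPKM for SNRPF and 60.1 and 65.1 RPKM for SNRPA1. They were 241 and 248 RPKM for SNRPC, and 197 and 180 RPKM for SRSF5. SRSF8 was at 8.13 RPKM with JQ1 and 10.9 RPKM with I-BET151, a log2 difference of -0.35 ± 0.14 (SE), and U2AF1L4 at 6.90 and 10.3 RPKM, -0.50 ± 0.18 (SE); these are the 2 members named. A p that misses the threshold does not show that the inhibitors act alike.

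In none of the 5 comparisons did a member's log2 difference itself differ between the 2 experiments at limma's adjusted p under 0.05. Over all tested genes 3 passed this test between the lines, and 0 between the inhibitors. In each of the comparisons that include DMSO 1 gene passed. With so few genes passing, the absence of members does not show that the experiments agreed.

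The promoters of the 3 SNRP genes that were lower with both inhibitors in every library are shown as examples. That of SRSF5, which moved the other way, is shown too. These members were chosen after their values were seen. The sequences are the 250 bases before the annotated start, from RefSeq on GRCh38.p14, 5' to 3' on the gene's strand. They lie at chr12:95858702-95858951 (plus strand) for SNRPF, chr15:101295249-101295498 (minus strand) for SNRPA1, chr6:34757255-34757504 (plus strand) for SNRPC and chr14:69766892-69767141 (plus strand) for SRSF5. Capitals mark matches, on either strand, to the E-box CACGTG, the ETS core CCGGAA, the CCAAT box CCAAT, the GC box GGGCGG or the TATA box TATAAA.
SNRPF: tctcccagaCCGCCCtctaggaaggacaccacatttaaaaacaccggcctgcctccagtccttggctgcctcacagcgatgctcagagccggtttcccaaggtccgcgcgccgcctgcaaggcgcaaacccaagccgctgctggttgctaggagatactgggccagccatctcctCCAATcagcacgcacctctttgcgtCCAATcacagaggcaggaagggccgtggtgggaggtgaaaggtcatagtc
SNRPA1: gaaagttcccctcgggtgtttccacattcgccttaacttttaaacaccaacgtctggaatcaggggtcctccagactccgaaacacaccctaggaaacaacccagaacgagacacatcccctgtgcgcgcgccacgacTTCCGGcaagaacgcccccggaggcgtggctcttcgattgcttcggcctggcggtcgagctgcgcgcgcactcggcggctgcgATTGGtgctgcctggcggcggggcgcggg
SNRPC: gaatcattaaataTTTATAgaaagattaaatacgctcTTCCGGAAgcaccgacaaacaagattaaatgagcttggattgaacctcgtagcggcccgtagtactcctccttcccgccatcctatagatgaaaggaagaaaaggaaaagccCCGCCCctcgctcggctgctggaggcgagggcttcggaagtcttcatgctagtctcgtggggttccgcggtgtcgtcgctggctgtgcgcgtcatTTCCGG
SRSF5: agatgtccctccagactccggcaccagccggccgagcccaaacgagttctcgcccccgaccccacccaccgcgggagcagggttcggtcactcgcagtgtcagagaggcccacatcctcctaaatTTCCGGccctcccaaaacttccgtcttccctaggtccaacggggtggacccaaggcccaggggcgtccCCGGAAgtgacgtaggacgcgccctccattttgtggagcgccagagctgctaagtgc
The window of SNRPF held CCAAT at 2 places and the GC box. That of SNRPA1 held the ETS core and CCAAT, both on the opposite strand. That of SNRPC held the ETS core, where matches on the 2 strands overlapped at 1 place, the GC box and the TATA box. SRSF5 had the ETS core at 2 places. The E-box was in none of these 4 windows. Promoters matched for 61 members, with 1 taken per member. The sets they are compared with kept every promoter of a gene, so the shares are not counted alike. The ETS core was in 41.0% of the members, against 20.6% of 16847 promoters of listed genes and 14.5% of all 35116 promoters in the RefSeq table. By family it was in 7 of 10 SNRP and 2 of 11 SRSF windows. CCAAT was in 42.6% of the members against 32.5% of listed genes, the GC box in 59.0% against 59.1%, the E-box in 11.5% against 7.9% and the TATA box in 9.8% against 6.6%. A match is a description of letters and not a bound site.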

How the data were processed

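The 24 libraries were made from RNA by a full-length cDNA method and transposon tagging that do not mark strand, per the labels' protocols. The authors deposited RPKM values per gene. The submitters' processing notes list edgeR 3.10.5, STAR 2.5.1b and featureCounts, with Subread 1.4.5-p1, and the build hg38. The sources used here do not state the annotation or settings. Whole reads were recovered from the steps of the RPKM values for 100% of genes, within 0.01 read, and used for depth alone; RPKM gives relative amounts, so a change of total RNA per cell would not show.

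Tests used limma 3.58.1 in R 4.3.3 on log2(RPKM + 1), where differences of low genes are understated. Genes needed 1 RPKM in at least 4 libraries, with an additive experiment term, a mean-variance trend and Benjamini-Hochberg adjustment over all tested genes. The line comparison was fitted on 12 libraries and the others together on the 18 LOUCY libraries. The models were checked on simulated data. GC content came from GENCODE 29 transcripts on GRCh38, available for 71 members.

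Values per library are given for the member with the largest rise and fall per family and comparison, among called members of 5 RPKM or more whose sign matched between experiments, and for a panel of known factors. The members, lists and tests were chosen with earlier results of these data known. SF3B6, a member, was taken out of the list of other core genes. Alternatives were the pseudocount, filters, scaling, GC trend, experiment term, a replicate block, single experiments and left-out libraries. SNRPN is not analysed here, and some single-gene results are not reported here.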

Additional observations from a re-analysis of the deposited data

Results flagged for a closer look

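Among 40 named members in the 5 groups, 200 sets of values were checked for a library lying apart from the rest of its group by Dixon's test; chance gives about 1 in 20 such sets, and 16 sets had one. Most came from the libraries of steep GC slope, and what set those apart was not tested.

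In DMSO, replicate 1 of experiment 2 was the highest library for HNRNPA1 at 242 RPKM (next 156), HNRNPK at 395 (next 315), PRPF4B at 38.1 (next 22.2), SF3B1 at 183 (next 124), SRSF1 at 154 (next 114.5), SRSF3 at 475 (next 259) and SRSF6 at 223 RPKM (next 124). It was the lowest for SNRPB, at 408 RPKM. In I-BET151, replicate 1 of experiment 2 was the highest for HNRNPA1 at 238 RPKM (next 150.0), HNRNPLL at 32.0 (next 23.5), SRSF2 at 270 (next 147), SRSF3 at 891 (next 312) and SRSF7 at 324 RPKM (next 224.5), and the lowest for U2AF2 at 3.41 RPKM. In untreated LOUCY, replicate 2 of experiment 2 was the highest for PRPF38A at 96.2 RPKM.

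The remaining one lay outside those libraries: HNRNPC in DMSO replicate 1 of experiment 1 was at 278.5 RPKM, with the other 3 between 282.5 and 283 RPKM, a gap that is small against the level.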

How the results depend on the processing

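Of the 35 members called between the lines 17 kept their call in all alternatives. None of the treatment calls did: 0 of 12 with JQ1, 0 of 9 with I-BET151 and 0 of 1 with DMSO. Of the JQ1 calls, 7 were lost in experiment 2 alone and in no other alternative. No result reversed direction past the threshold under any alternative run. Leaving out 1 library at a time gave, for LOUCY against JURKAT, 18 to 20 members higher and 12 to 17 lower. For DMSO against untreated LOUCY it gave 0 higher and 0 to 1 lower, for JQ1 against DMSO 1 to 2 higher and 7 to 10 lower, for I-BET151 against DMSO 1 to 3 higher and 6 to 11 lower, and 0 in both directions for JQ1 against I-BET151. Without I-BET151 replicate 1 of experiment 2 the I-BET151 counts were 3 higher and 11 lower.

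In experiment 2 alone 12 members were higher and 9 lower in LOUCY than in JURKAT. In the other comparisons, where each group then had fewer libraries, 0 passed in either direction. Over all 11024 genes tested there, 91 were higher and 300 lower with JQ1, and 93 higher and 363 lower with I-BET151. Experiment 1 had as many libraries per group. In it alone 3 members were higher and 9 lower with JQ1, beside 1456 and 1982 of all 10960 tested genes. With I-BET151 3 members were higher and 5 lower, beside 1176 and 1611. The DMSO count of 1 lower became 0 with median scaling, quantile normalization, no experiment term, averaged replicates and the 2 groups alone. For JQ1, 1 was higher with the filter at 5 RPKM, 6 lower with averaged replicates and 4 higher without the 3 libraries of steep GC slope. For I-BET151, 1 was higher with no filter, the filter at 5 RPKM, median scaling or no experiment term. With the GC trend removed 15 of 67 tested members were lower, beside 2274 of all 10789 tested genes. With the 2 groups alone 0 members passed in either direction, beside 518 higher and 1014 lower of all 10816 tested genes. The causes of these changes were not tested.

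Replicate numbers were shared by the groups, but same-numbered libraries did not deviate together in every pair (correlations from -0.58 to 0.68), so the number was not taken as a pairing. With the replicate block 18 members were higher and 16 lower in LOUCY than in JURKAT, 0 were lower with DMSO, 2 higher and 9 lower with JQ1, and 1 higher and 6 lower with I-BET151.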
